A study of Homo sapiens with 6 samples.

Results

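The subject here is the 6 human HOX genes of paralog groups 10 and 11: HOXA10, HOXC10, HOXD10, HOXA11, HOXC11 and HOXD11. They were found by matching their Ensembl IDs to GENCODE release 29 symbols, and all 6 were among the 60107 gene IDs of the count table. They are 6 of the 39 human HOX genes. They were chosen by their higher levels in earlier results of the glutamine contrast. The RNA came from the embryonic stem cell line H9, an established human line, on day 9 of a directed differentiation to nephron progenitor cells, the kidney precursors that give rise to nephrons. Of the 6 libraries, 3 came from cells in complete medium, which holds glutamine, and 3 from cells deprived of glutamine from the start of the protocol. All libraries come from this 1 line, and no label says whether those of a group are separate cultures, so the spread between libraries may be technical. The count table heads the libraries with glutamine as day 0 and those without as day 9, although the labels place all of them on day 9. Columns were assigned by the heading that each sample's description states, and every direction below rests on that.

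HOX genes encode homeodomain transcription factors. They lie in clusters in which the order along the chromosome matches the order of their expression along the body axis, from group 1 at the anterior end to group 13 at the posterior end. Groups 10 and 11 mark the lumbar and sacral trunk. In the mouse, the group 11 genes are needed together for the metanephric kidney, where they act with EYA1 and PAX2 to drive SIX2 and GDNF in the progenitors. The HOXB cluster has no gene of group 10 or 11.

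The 6 genes lie at the posterior ends of 3 clusters in GENCODE 29 on GRCh38, the build the submitters name. HOXA10 spans chr7:27170591-27180261 and HOXA11 chr7:27181510-27185223, both on the minus strand. HOXC11 spans chr12:53973126-53977643 and HOXC10 chr12:53985065-53990279, both on the plus strand. HOXD11 spans chr2:176104216-176109754 and HOXD10 chr2:176108790-176119942, both on the plus strand. The exons of HOXD10 and HOXD11 share 452 bases on the same strand, which is 21.4% of the exon bases of HOXD11, so reads there cannot be assigned to 1 of the 2.

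RefSeq promoter windows on GRCh38.p14 were matched for 4 of the 6 genes, HOXA10, HOXA11, HOXD10 and HOXD11, and not for HOXC10 and HOXC11. HOXA10 has 2 starts, which makes 5 windows. The 250 bases before the start are printed for 1 window each of HOXA10, HOXA11 and HOXD11, the windows that hold no annotated exon of their own gene. By the spans above, which join all transcripts of a gene, the HOXA10 and HOXD11 windows lie inside the gene, before an inner start. The HOXA11 window lies before the gene. The capitals mark every match, on either strand, to 7 motifs chosen with the sequences in view. They were the joint site of HOX and its cofactor PBX, the CDX site, the homeodomain core, the E-box, the cyclic AMP response half-site, the TATA box and the retinoic acid receptor half-site.
HOXA10, inner start, chr7:27174321-27174570, minus strand: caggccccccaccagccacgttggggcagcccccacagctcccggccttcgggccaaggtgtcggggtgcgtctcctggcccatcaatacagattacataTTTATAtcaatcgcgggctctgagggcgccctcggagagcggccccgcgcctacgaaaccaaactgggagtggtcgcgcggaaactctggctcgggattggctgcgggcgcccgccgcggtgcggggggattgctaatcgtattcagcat
HOXA11, chr7:27185233-27185482, minus strand: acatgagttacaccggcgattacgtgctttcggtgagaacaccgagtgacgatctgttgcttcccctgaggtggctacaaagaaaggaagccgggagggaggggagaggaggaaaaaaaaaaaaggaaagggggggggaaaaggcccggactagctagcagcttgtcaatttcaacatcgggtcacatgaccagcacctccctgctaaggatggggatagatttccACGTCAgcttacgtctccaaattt
HOXD11, chr2:176107030-176107279, plus strand: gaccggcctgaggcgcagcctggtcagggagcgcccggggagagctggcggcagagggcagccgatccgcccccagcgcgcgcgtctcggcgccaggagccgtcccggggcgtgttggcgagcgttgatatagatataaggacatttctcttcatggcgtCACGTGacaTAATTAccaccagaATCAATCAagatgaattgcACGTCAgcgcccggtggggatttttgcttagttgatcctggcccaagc
The HOXD11 window held the HOX and PBX motif, the homeodomain core, an E-box and the cyclic AMP half-site, none of them overlapping another. The HOX and PBX motif, TGATTNAT, occurred in 2.5% of all 35116 promoter windows of that length. The homeodomain core, spelled TAATTA, occurred in 4.3% of windows. The E-box searched for was CACGTG, in 6.3% of windows. The cyclic AMP half-site, which reads TGACGT, was in 7.1%. The cyclic AMP half-site was the 1 match in the HOXA11 window. The E-box was the 1 match in the HOXD10 window, which is not printed because 199 of its bases are annotated exon. The TATA box, written TATAAA and present in 10.7% of windows, was in both HOXA10 windows, where it read on the opposite strand at the inner start. At the outer start it overlapped a match to the CDX motif. That motif, TTTATNG, was in 8.9% of windows. The retinoic acid receptor half-site, AGGTCA, was in 12.1% of windows and in none of the 5. All 250 bases of the HOXA11 window lie in exons of the antisense gene HOXA11-AS. A match of letters is a description and shows no binding.

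The libraries held 78220507 to 84746566 counts, so that a level of 1 CPM (counts scaled to a common library size by edgeR's TMM method) stood for about 78.6 counts. One library stood apart from its group before any HOX gene was considered. Across genes, log2 CPM correlated with a Pearson r of 0.9955 between replicates 2 and 3 with glutamine. It was 0.9758 and 0.9762 between replicate 1 with glutamine and those 2, and 0.9908 to 0.9927 between replicate 1 and the libraries without glutamine. Values are therefore given with and without that library. Of the nephron progenitor markers, 8 of 8 reached 1 CPM, with a summed level of 696 to 917 CPM with glutamine and 847 to 1054 without. The sum joins genes that differed in direction. The ratio of mean CPM without to with glutamine was 3.28 for PAX2, 1.29 for WT1 and 1.23 for SALL1. It was 0.979 for MEOX1, 0.787 for CITED1, 0.716 for EYA1, 0.549 for OSR1 and 0.358 for SIX2. The pluripotency markers NANOG and TDGF1, the neuromesodermal marker NKX1-2, the lateral plate marker HAND1 and the endoderm markers FOXA2 and TTR were under 0.1 CPM in every library. Other members of these lists were present. The pluripotency list, in which 2 of 5 genes (LIN28A and DPPA4) reached 1 CPM, summed to 340 to 436 CPM with glutamine and 337 to 407 without. These 2 differed in opposite directions. LIN28A averaged 262.5 CPM with glutamine and 136.2 without, and DPPA4 averaged 141.1 with and 245.6 without. The neuromesodermal list, with 2 of 5 reaching 1 CPM (SOX2 and CDX2), summed to 14.3 to 29.2 with and 14.8 to 20.6 without. SOX2 gave most of this sum. In replicates 1 to 3 it measured 11.6, 22.6 and 20.0 CPM with glutamine and 17.1, 13.7 and 11.9 without.

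All 6 genes were at their highest in the libraries without glutamine and at their lowest in replicates 2 and 3 with glutamine, and replicate 1 with glutamine lay between. The ratio of mean CPM without to with glutamine ran from 2.75 for HOXA10 to 32.0 for HOXC11. Because this contrast chose the genes, these values describe them and no test is given. In bulk RNA, fewer cells of a type and less RNA per cell cannot be told apart.

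HOXA10, a factor also known for its role in the uterus and in blood progenitors, measured 47.2, 8.91 and 13.1 CPM with glutamine (replicates 1 to 3, the order used throughout) against 68.1, 61.9 and 60.6 CPM without. It had the smallest spread among the libraries without glutamine, and 696 counts in its lowest library. The means were 23.1 ± 21.0 and 63.5 ± 4.01 CPM (SD, n = 3), and the fitted log2 fold change was 1.46 (SE 0.56). Against replicates 2 and 3 alone the ratio was 5.77.

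HOXC10, which is known from hindlimb and lumbar motor neuron patterning, measured 35.8, 1.24 and 1.69 CPM with glutamine against 72.3, 85.8 and 92.3 without. In counts this was 97 and 133 in replicates 2 and 3 with glutamine against 6217 to 7248 without. The means were 12.9 ± 19.8 and 83.5 ± 10.2 CPM (SD, n = 3), and the fitted log2 fold change was 2.69 (SE 1.13). The ratio was 6.46 against all libraries with glutamine and 56.9 against replicates 2 and 3.

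HOXD10, a lumbar and hindlimb factor, measured 6.32, 0.487 and 0.649 CPM with glutamine against 17.0, 27.7 and 32.7 without. The groups did not overlap, and the libraries without glutamine spanned 1.93-fold among themselves. The means were 2.49 ± 3.32 and 25.8 ± 8.04 CPM (SD, n = 3), and the fitted log2 fold change was 3.36 (SE 0.84). The ratio against replicates 2 and 3 was 45.4.

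The group 11 genes were close to the limit of detection in 2 of the 3 libraries with glutamine. HOXA11, the paralog whose loss together with that of HOXD11 disrupts the mouse kidney, had 98, 3 and 6 counts with glutamine and 297, 412 and 286 without. Its means were 0.441 ± 0.664 and 4.12 ± 0.992 CPM (SD, n = 3), and the fitted log2 fold change was 3.20 (SE 0.75). The ratio was 9.34 against all libraries with glutamine and 71.8 against replicates 2 and 3, which held 9 counts together.

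HOXD11, its partner in the mouse kidney, had 44, 0 and 1 counts with glutamine and 277, 418 and 475 without. The 0 allows a level of up to 0.0384 CPM, the value of 3 counts in that library. Its means were 0.185 ± 0.310 and 4.87 ± 1.47 CPM (SD, n = 3), and the fitted log2 fold change was 4.67 (SE 0.74). Against the 1 count of replicates 2 and 3 together the ratio was 755, with an exact 95% interval of 135 to 29830 that covers counting error only.

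HOXC11, the third group 11 gene, had 20, 0 and 0 counts with glutamine and 154, 278 and 201 without. Its means were 0.0822 ± 0.142 and 2.63 ± 0.881 CPM (SD, n = 3), and the fitted log2 fold change was 4.94 (SE 0.70). The libraries without glutamine were at least 136-fold higher than replicates 2 and 3, taking 3 counts over both as the floor.

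**Figure D1:**
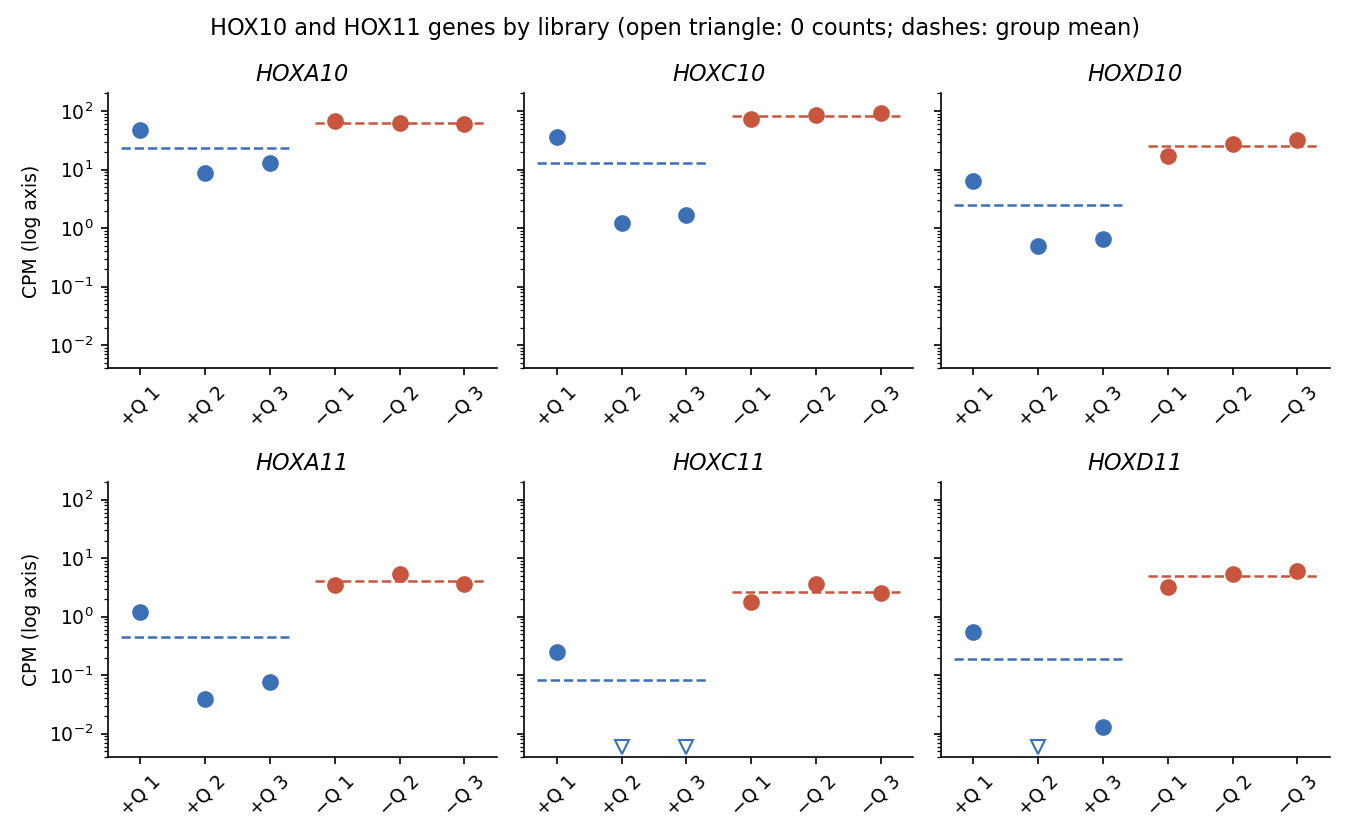
Each panel plots the CPM of 1 gene on a log axis in the 3 libraries with glutamine (+Q, blue) and the 3 without (−Q, red), with dashes at the group means and open triangles for libraries at 0 counts. In each panel +Q 1 lies between the other blue points and the red points, and HOXC11 is at 0 in +Q 2 and +Q 3.

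All 6 genes passed the filter on low counts, but HOXA11, HOXC11 and HOXD11 had under 10 counts in replicates 2 and 3 with glutamine and passed through the other libraries. In all 6 the groups did not overlap and the libraries without glutamine were above. That order held for 17.3% of the 22613 genes tested, and nothing is read from the count because the contrast chose the genes. The median log2 fold change of the 6 was 3.28, and that of all genes tested was 0.001. Ranked by fitted log2 fold change, 2 genes lay above HOXC11, 3 above HOXD11, 12 above HOXD10, 15 above HOXA11, 36 above HOXC10 and 543 above HOXA10. Across the whole table, edgeR's quasi-likelihood test with Benjamini-Hochberg adjustment called 1 gene at 0.05, or 0.00442% of those tested. It was SLC7A11, a cystine transporter. Before adjustment 29.7% of genes were under 0.05. Without replicate 1 with glutamine, edgeR called 41.3% of the 23164 genes then tested. The DESeq2 test called 7.07% of the 43005 genes it tested. Those 43005 include genes too low in counts for edgeR's filter. The DESeq2 share is therefore not a like background for the gene lists below.

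Replicate 1 with glutamine held the group 10 and group 11 genes at different fractions of the level without glutamine. It was at 74.3% of the mean without glutamine for HOXA10, 42.9% for HOXC10 and 24.5% for HOXD10. For the group 11 genes it was at 29.3% for HOXA11, 11.1% for HOXD11 and 9.36% for HOXC11. Within each of the 3 clusters the group 11 gene was at a smaller fraction than the group 10 gene. Against the mean of replicates 2 and 3 the library was 4.28-fold higher for HOXA10, 24.4-fold for HOXC10, 11.1-fold for HOXD10 and 21.1-fold for HOXA11. It was at least 12.9-fold higher for HOXC11, and 85-fold for HOXD11 with an exact 95% counting interval of 14.5 to 3431. The order of replicates 2 and 3 below replicate 1, and replicate 1 below all libraries without glutamine, held for 6 of 6 genes and for 12.7% of all genes tested. Markers of the nephric duct, the tube next to the nephron progenitors, were all detected (6 of 6 at 1 CPM or more). Their summed level was 181 CPM in the lowest library with glutamine and 817 in replicate 1, inside the range of 795 to 1146 without. PAX8 gave most of it, at 648.6, 193.5 and 166.9 CPM with glutamine and 848.3, 679.7 and 586.9 without. RET differed the other way, averaging 4.77 CPM with and 3.84 without. The summed somite markers, 6 of 7 of them detected, came to 79.3 CPM in replicate 1. They came to up to 224 in the others of its group and to 85.1 to 122 without. PAX3 varied most among them in CPM, at 20.8, 115 and 118 with glutamine and 22.4, 12.4 and 13.4 without. UNCX differed the other way, averaging 15.8 with and 26.0 without, and MEOX1 averaged 53.6 and 52.5. Lateral plate markers, 1 of 7 detected (GATA6), summed to 2.01 to 8.78 CPM with glutamine, the highest in replicate 1. Without glutamine they summed to 12.8 to 16.4. Endothelial markers, 5 of 5 detected, summed to 28.2 in replicate 1, to at most 88.6 in its group and to 16.7 to 22.1 without. KDR gave most of these sums, at 24.3, 82.3 and 69.8 CPM with glutamine and 13.5, 12.7 and 17.5 without. TEK differed the other way, averaging 1.95 CPM with and 2.55 without. What part the marked cell types have in the HOX values was not tested.

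In these fitted values the step along the HOX clusters lay between groups 9 and 10, a description that was not tested. Of the 27 HOX genes of groups 1 to 9, 3 lay above and 4 below in all libraries without glutamine. Over all genes tested 17.3% lay above and 16.9% below. The median of the 27 log2 fold changes was -0.18, within -0.77 to 0.61. None of the 27 passed edgeR's adjusted threshold, which only 1 gene of the whole table passed. Of the 28 HOX genes tested outside the 6, HOXB13 included, 11 had an unadjusted p under 0.05 with edgeR. Of these, 4 were higher and 7 lower without glutamine. DESeq2 called 8, of which 3 were higher and 5 lower. The shares over all genes were 29.7% unadjusted with edgeR and 7.07% of the 43005 genes of DESeq2. HOXA4 had a log2 fold change of -0.77 (edgeR adjusted p 0.0799), HOXC8 of -0.75 (0.0857) and HOXB9 of -0.66. The counts of the 27 ran from 129 to 42790, so all were well detected. HOXA9, next to HOXA10, averaged 225 ± 42.0 CPM (SD, n = 3) with glutamine and 164 ± 19.7 CPM without, for an edgeR adjusted p of 0.109. HOXC9 averaged 56.6 ± 6.13 and 57.3 ± 9.88 CPM (edgeR adjusted p 0.946). HOXD9 averaged 51.9 ± 8.62 and 79.4 ± 4.96 CPM (edgeR adjusted p 0.0689), the 1 group 9 gene higher in all 3 libraries without glutamine. HOXB9, the last gene before the gap in its cluster, was at 467 ± 120 and 295 ± 21.2 CPM (edgeR adjusted p 0.0857).

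Beyond group 11 the clusters were nearly silent in every library. HOXA13, HOXB13, HOXC12, HOXC13, HOXD12 and HOXD13 had at most 16 counts, and only HOXB13 passed the filter on low counts, with an edgeR adjusted p of 0.272. HOXA13 had 7 counts in replicate 1 with glutamine, none in replicates 2 and 3, and 4 or 5 in each library without. HOXD13 had 1 or 2 counts with glutamine and 4 to 8 without. HOXC12 had 1 count in all libraries together.

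**Figure D2:**
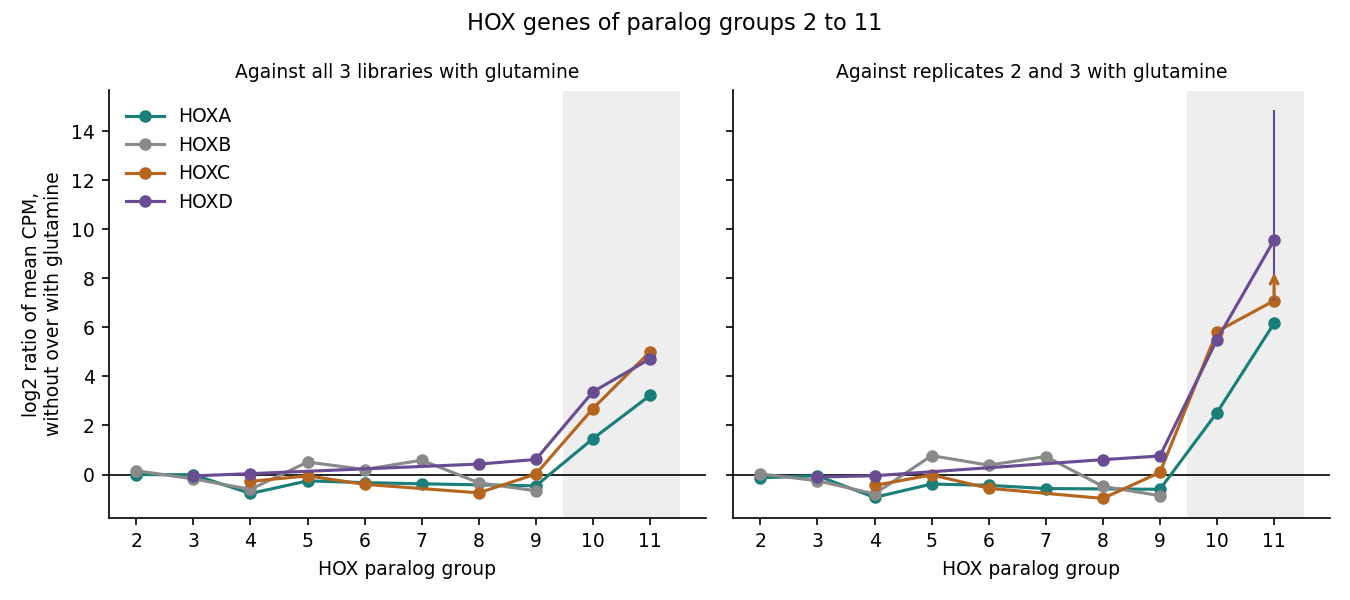
The log2 ratio of mean CPM without to with glutamine is plotted by paralog group for the HOX genes of groups 2 to 11, coloured by cluster, against all 3 libraries with glutamine (left) and against replicates 2 and 3 (right). Groups 2 to 9 stay near 0 and the shaded groups 10 and 11 stand above; the arrow marks the lower bound for HOXC11 and the vertical line the exact 95% counting interval for HOXD11.

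Levels of different genes were compared as CPM per kilobase of annotated exon. Without glutamine, HOXC10 was at 31.0, 36.8 and 39.6 CPM per kilobase in replicates 1, 2 and 3, and HOXA10 at 18.4, 16.7 and 16.4. HOXD10 followed at 6.30, 10.3 and 12.1. HOXD11 was at 1.53, 2.53 and 2.87, HOXA11 at 1.5, 2.28 and 1.58, and HOXC11 at 0.548, 1.09 and 0.784. The order HOXC10, HOXA10, HOXD10, HOXD11, HOXA11, HOXC11 was the same in these 3 libraries, although the ranges of HOXD11 and HOXA11 overlapped. In replicates 2 and 3 with glutamine HOXA10 led, at 2.40 and 3.54 CPM per kilobase, ahead of HOXC10 at 0.533 and 0.726.

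The make-up of the summed level differed accordingly. HOXA10 gave 76.7% and 77.9% of the summed level per kilobase of the 6 genes in replicates 2 and 3 with glutamine, 40.7% in replicate 1, and 25.8% ± 4.62 without glutamine (SD, n = 3). HOXC10 gave 17.0% and 16.0% in replicates 2 and 3, 49.1% in replicate 1, and 53.1% ± 0.860 without (SD, n = 3). With the longest transcript as gene length the order of the 2 in replicate 1 turned, at 45.1% for HOXA10 and 44.9% for HOXC10, and stayed in the other libraries. The 3 group 11 genes together gave 0.531% and 0.861% in replicates 2 and 3, 2.74% in replicate 1, and 7.21% ± 1.22 without (SD, n = 3). The sum itself was 31.3, 3.13 and 4.55 CPM per kilobase in replicates 1, 2 and 3 with glutamine and 59.2, 69.7 and 73.3 without.

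**Figure D3:**
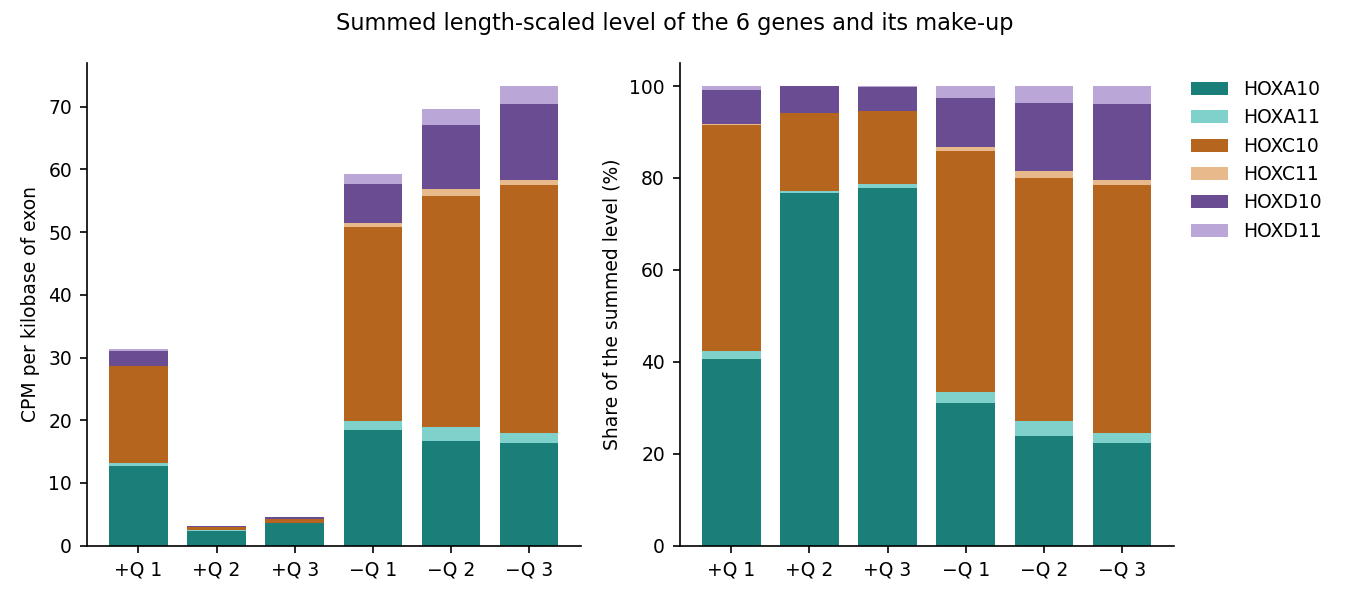
Stacked bars give the level of the 6 genes in CPM per kilobase of exon (left) and as a percentage of their sum (right) in each library. HOXA10 takes most of the short bars of +Q 2 and +Q 3, and HOXC10 is the largest part of the −Q bars and, with these exon lengths but not with the longest transcript, of +Q 1.

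The group 11 gene was below its group 10 neighbour in every library and cluster. Per kilobase, HOXD11 was at 24.2%, 24.6% and 23.6% of HOXD10 in the libraries without glutamine, HOXA11 at 8.15%, 13.7% and 9.65% of HOXA10, and HOXC11 at 1.77%, 2.95% and 1.98% of HOXC10. In replicate 1 with glutamine these figures were 10.9%, 4.12% and 0.491%, each below all 3 libraries without. In replicates 2 and 3 HOXA11 was at 0.693% and 0.935% of HOXA10, on 9 counts. The bases shared by HOXD10 and HOXD11 bear on the HOXD figure, which depends on how the authors assigned those reads. The level relative to group 9 also differed between clusters. HOXC10 was at 1.80% and 2.10% of HOXC9 per kilobase in replicates 2 and 3 with glutamine, 41.8% in replicate 1 and 76.3% to 126% without. HOXD10 was at 0.749% and 0.921% of HOXD9 in replicates 2 and 3, 7.13% in replicate 1 and 13.9% to 30.4% without. HOXA10 was at 3.08% and 4.11% of HOXA9, 21.5% in replicate 1 and 29.9% to 33.4% without.

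The libraries without glutamine also differed among themselves. Replicate 1 was the lowest of the 3 for HOXC10, HOXD10, HOXA11, HOXC11 and HOXD11, and the highest for HOXA10. The highest of the 3 was 1.12 times the lowest for HOXA10, 1.28 times for HOXC10, 1.52 times for HOXA11, 1.88 times for HOXD11, 1.93 times for HOXD10 and 1.98 times for HOXC11.

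Several transcripts are annotated over the 6 genes. HOXA11-AS, antisense to HOXA11, covers 31.1% of its exon bases and had 14, 7 and 2 counts with glutamine and 61, 56 and 38 without. HOXC-AS3, antisense to HOXC10, covers 2.7% of its exon bases and had 132, 1 and 5 counts with and 359, 420 and 399 without. HOTAIR, a long noncoding RNA whose gene overlaps that of HOXC11 with no shared exon base, had 23, 4 and 1 counts with and 84, 123 and 105 without. In these 3, as in the genes they overlap, replicates 2 and 3 with glutamine were lowest. Replicate 1 lay between those and the libraries without. Inside these sets the order could differ, with HOXC-AS3 highest in replicate 2 without and HOXC10 in replicate 3. HOXA10-AS, antisense to HOXA10 over 16.4% of its exon bases, did not have that order of sets, at 14.1, 10.7 and 10.0 CPM with and 13.2, 9.20 and 10.2 without. The kit marked strand, but the strand setting of the counting is not given in the sources used here, so reads of antisense partners may be mixed. The readthrough genes AC004080.3 over HOXA10 and AC012531.2 over HOXC10 had 0 counts in all libraries.

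The likeness of other genes to the 6 was measured as the root mean square distance, over the 6 libraries, between log2 CPM profiles centred on each gene's mean. Among the 6, HOXD10 lay 0.20 from the mean profile of the other 5, HOXA11 0.22, HOXC10 0.41, HOXC11 0.75, HOXD11 0.95 and HOXA10 1.64. HOXA10 stood farthest because its range was smaller. Of 13851 other protein-coding genes with a mean of at least 50 counts, the 6 nearest to the mean of the members were ADGRF1 (0.362), CCDC198 (0.368), SORCS3 (0.371), NRG3 (0.424), COL12A1 (0.430) and CLDN1 (0.435). ADGRF1 is an adhesion receptor, SORCS3 a sorting receptor, NRG3 a neuregulin ligand, COL12A1 a collagen chain and CLDN1 a tight junction protein. CLDN1 measured 32.4, 1.10 and 1.37 CPM with glutamine against 53.7, 64.4 and 52.9 without. COL12A1 measured 20.4, 2.48 and 3.21 CPM with against 48.5, 86.8 and 101 without. These distances describe 6 points that share libraries, and the list depends on the measure. With Pearson's r in its place 0 of these 6 genes were among the 6 nearest.

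**Figure D4:**
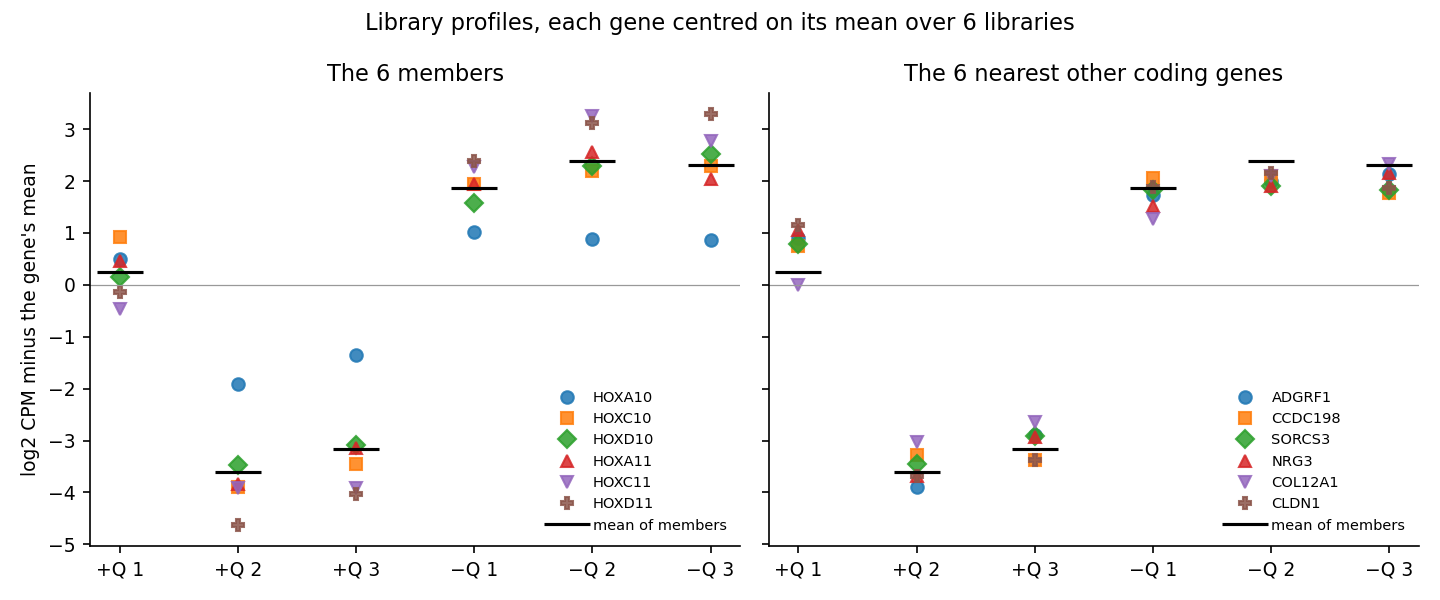
Points give log2 CPM minus the gene's mean over 6 libraries for the 6 HOX genes (left) and the 6 nearest other coding genes (right), and black bars give the mean of the HOX genes. HOXA10 spans the smallest range on the left, and the 6 genes on the right are lowest in +Q 2 and +Q 3 and highest in the −Q libraries, as the bars are.

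The partners and targets of group 11 in the kidney did not move as 1 block. Of the 12 genes listed, 0 passed edgeR's adjusted threshold, 7 had an unadjusted p under 0.05 (1 higher and 6 lower without glutamine), and DESeq2 called 6 (1 higher and 5 lower). Over all genes tested, edgeR had 0.00442% past the adjusted threshold and 29.7% at an unadjusted p under 0.05. DESeq2 called 7.07% of its 43005 genes. The median log2 fold change of the 12 was -0.40, and -0.16 without replicate 1 with glutamine. GDNF, the ligand that draws out the ureteric bud, measured 20.9, 9.46 and 8.45 CPM with glutamine against 33.3, 38.9 and 28.0 without. The log2 fold change was 1.37, with SE 0.34 and an edgeR adjusted p of 0.0762. SIX2, the progenitor self-renewal factor, measured 6.57, 34.8 and 27.9 CPM with against 9.70, 7.80 and 7.27 without (edgeR adjusted p 0.126). EYA1, the coactivator of the complex, measured 164, 222 and 202 CPM with against 155, 134 and 131 without (edgeR adjusted p 0.0796). PAX2, its DNA-binding partner, measured 150, 17.0 and 12.9 CPM with against 245, 200 and 146 without (edgeR adjusted p 0.234). WNT4, an inducer of nephron epithelium, measured 26.0, 1.31 and 0.942 CPM with against 29.6, 24.9 and 30.3 without (edgeR adjusted p 0.342). In all 5 of these genes replicate 1 with glutamine lay outside the range of the other 2 of its group, on the side of the libraries without.

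Of the 9 TALE homeodomain cofactors, which bind DNA together with HOX proteins, 0 passed edgeR's adjusted threshold, 1 had an unadjusted p under 0.05 and DESeq2 called 1. The shares over all genes were 0.00442% adjusted and 29.7% unadjusted with edgeR, and 7.07% of the 43005 genes of DESeq2. The median log2 fold change of the 9 was 0.03 and changed sign to -0.014 under upper quartile scaling. PBX3 measured 40.1, 17.1 and 15.8 CPM with glutamine against 46.1, 46.3 and 47.0 without. The log2 fold change was 0.93, with SE 0.34 and an edgeR adjusted p of 0.128. MEIS3 had a log2 fold change of 0.37 (edgeR adjusted p 0.173) and PBX4 of -0.17 (0.428).

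Of the 20 genes of axial patterning, 0 passed edgeR's adjusted threshold, 8 had an unadjusted p under 0.05 (1 higher and 7 lower without glutamine), and DESeq2 called 5, all lower. Across all genes these shares were 0.00442% adjusted and 29.7% unadjusted with edgeR, and 7.07% of the 43005 genes of DESeq2. The median log2 fold change of the 20 was -0.38. CDX1, which activates trunk HOX genes, measured 1.16, 9.85 and 9.62 CPM with glutamine against 1.84, 1.66 and 1.43 without (edgeR adjusted p 0.114). CDX2 measured 2.06, 5.52 and 5.71 CPM with against 2.76, 2.82 and 2.11 without (edgeR adjusted p 0.203). TBXT, the axial progenitor factor, was below 1 CPM in every library (edgeR adjusted p 0.229). NR6A1, a nuclear receptor of trunk development, measured 58.4, 119 and 117 CPM with against 50.6, 42.5 and 41.8 without (edgeR adjusted p 0.0721). LIN28A, an RNA-binding regulator of developmental timing, measured 156, 310 and 322 CPM with against 152, 132 and 125 without (edgeR adjusted p 0.0829). RARB, a retinoic acid receptor, measured 48.7, 20.6 and 21.0 CPM with against 48.2, 63.2 and 83.9 without (edgeR adjusted p 0.11).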

How the data were processed

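RNA-seq of 6 libraries was read as single 50-nt ends from a stranded mRNA kit, per the labels' protocols. The authors deposited raw counts per Ensembl gene, with 60107 IDs and no summary row. Per the submitters' processing notes, Trim Galore, cutadapt, FastQC, STAR 2.5.2b, DESeq2 and GRCh38 were used. The counting program, annotation release, strand setting and treatment of multiply aligned reads are not given in the sources used here. The deposited normalized table was not used.

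Symbols, positions and exon lengths came from GENCODE 29, which matched 56531 IDs. Counts were tested with edgeR 4.0.16 in R 4.3.3 (quasi-likelihood F test, legacy = FALSE, TMM, filterByExpr by group, 22613 genes kept, Benjamini-Hochberg over all of them, threshold 0.05), after a test on simulated data. A standard error is the log2 fold change over the square root of F. CPM used TMM-scaled sizes, and log2 CPM a prior count of 2. A 0 was given a floor of 3 counts, and intervals at 95% were exact binomial ones. Alternatives covered scaling, filter, test (DESeq2 1.42.0), replicate block, gene length and each library left out.

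The members and lists were chosen with earlier results of these data known. Named were the members, HOX groups 9, 12 and 13, genes overlapping a member, the 6 nearest genes, the 4 largest changes per list among genes with a mean of at least 1 CPM, 6 fixed genes (TBXT, CDX2, PAX2, EYA1, SIX2, GDNF) and the gene called. Some genes that this rule names are not reported here. HOXC5 had 2 IDs in the annotation, and the 1 listed under that symbol in the table of gene names was used.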

Additional observations from a re-analysis of the deposited data

How the results depend on the processing

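The contrast chose the members, and their groups did not overlap, so the sign of their change had little room to turn. It stayed above 0 in 84 of 84 alternative values, and nothing is read from that count. With each library left out in turn the log2 fold change ran from 1.07 to 2.53 for HOXA10, 2.15 to 5.83 for HOXC10, 2.88 to 5.5 for HOXD10, 2.66 to 6.12 for HOXA11, 4.37 to 10.71 for HOXC11 and 4.10 to 9.26 for HOXD11. Their median ran from 2.77 to 5.98. Each highest value came without replicate 1 with glutamine. The fitted 10.71 of HOXC11 is set by edgeR's prior count, since its 2 remaining libraries with glutamine are at 0, and is no bound. With HOXC11 at its bound the median log2 ratio of mean CPM was 6.0.

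The count of genes with an adjusted p under 0.05, 1 with all libraries, was 0 under upper quartile scaling, library size only, edgeR's legacy setting and the replicate block. It was 2 with no filter (SLC7A11 and TLL1, the latter named after its values were seen), 3041 with DESeq2, and from 0 to 9573 with 1 library left out, the highest without replicate 1 with glutamine and 17 without replicate 1 of the other group. The cause was not tested. Same-numbered libraries did not deviate together (correlations of -0.02, 0 and 0.03), so the replicate block, under which HOXC10 was at 4.33, pairs libraries that share only a number.

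The median of the TALE cofactors was -0.014 under upper quartile scaling and ran from -0.044 to 0.061 with 1 library left out. That of the chromatin regulators was -0.055 and ran from -0.031 to 0.015, and that of the kidney partners ran from -0.457 to -0.161. With the longest transcript as gene length, HOXC10 gave 49.6% of the summed level without glutamine. By Pearson's r in place of distance, 0 of the 6 nearest genes were the same. Depth limits HOXA11, HOXC11 and HOXD11 in replicates 2 and 3 with glutamine, at 0 to 6 counts.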

Other observations

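Of 29 chromatin regulators that silence or open HOX clusters in other settings, 0 passed edgeR's adjusted threshold. At an unadjusted p under 0.05 there were 7, 3 higher and 4 lower without glutamine, and DESeq2 called 2, both lower. For all genes the shares were 0.00442% adjusted and 29.7% unadjusted with edgeR, and 7.07% of the 43005 genes of DESeq2. The median log2 fold change of the 29 was -0.01, and its sign changed with the library left out. JARID2, a partner of the Polycomb repressive complex that methylates histone H3, measured 233, 124 and 117 CPM with glutamine against 237, 207 and 236 without (edgeR adjusted p 0.214). CBX2, a Polycomb chromodomain protein, measured 186, 283 and 280 CPM with against 196, 172 and 165 without (edgeR adjusted p 0.115). KMT2C, a histone methyltransferase, measured 180, 213 and 191 CPM with against 155, 123 and 155 without (edgeR adjusted p 0.0801).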
